A study of Mus musculus with 6 samples.

Results

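Lysosomal enzymes and membrane proteins were followed in kidneys of mice aged 4 weeks as a list of 45 genes. They comprised 12 cathepsins, 2 other peptidases, 11 glycosidases, 4 sulfatases, 7 genes of lipid handling, 7 genes of membrane proteins and 2 regulators. A gene was measured where the platform annotation gave a probe set of the array exactly 1 gene symbol, and among several probe sets the brightest on average was used. By this rule 43 of the 45 members were measured, among 22180 genes in all. The glycosidase genes Glb1 and Hyal1 had no probe set of their own and were not analysed here. The samples were 3 kidneys labelled Cre-negative and 3 labelled Cre-positive, each total RNA hybridised to 1 single-colour Affymetrix array. The labels name a conditional Mpp5 (Pals1) mouse line, given as C56Bl/6, and Six2-Cre transgenic mice of mixed background, and give mixed background for all 6 samples. No treatment was given. Pals1, the product of Mpp5, is a scaffold of the apical Crumbs polarity complex, and the series title concerns its haplo-insufficiency in nephrons. Six2-Cre drives recombination in nephron progenitors, so that collecting duct, endothelial and blood cells keep their alleles. The labels do not say how many conditional alleles each group carried, nor whether the Cre-negative mice had any. They also do not tie each sample to its own animal, and p-values therefore reflect only how far these 6 samples scatter, part of which may be technical.

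The lysosome is an acidic organelle in which proteins, glycans and lipids are broken down. Soluble hydrolases reach it mainly through mannose phosphate tags and their receptors, a vacuolar proton pump acidifies it, and heavily glycosylated membrane proteins line it. In the kidney, proximal tubule cells carry a large lysosomal load because they digest the filtered protein taken up through megalin and cubilin, and macrophages are rich in lysosomes as well. TFEB and its relatives TFE3 and MITF are transcription factors that bind the letters CACGTG, often flanked as TCACGTGA, at many lysosomal genes. Loss of single enzymes on this list causes lysosomal storage diseases.

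Values below are the deposited log2 levels, and differences are Cre-positive minus Cre-negative on that scale, ± SE from a limma fit with n = 3 per group. A gene was said to rise or fall where the limma p adjusted over all 22180 genes was under 0.05. Array medians lay between 5.55 and 5.64. Mpp5, the targeted gene, was at 8.66, 8.69 and 8.78 in Cre-negative and at 8.04, 8.06 and 8.20 in Cre-positive arrays, a level 0.654 times as high. Whether its probe set lies in the deleted part is not known. Xist and the Y-linked genes showed that Cre-negative replicates 1 and 2 were from females and the other 4 arrays from males. Cre-negative replicate 2 also carried adrenal transcripts and Cre-positive replicate 2 skeletal muscle transcripts. Calls were therefore also made with sex as a second factor, with male arrays alone (3 against 1, with the spread of the single control taken from the other group) and without both replicates 2. The tubule markers fixed for the tissue check were present: Lrp2, which encodes megalin, lay between 11.05 and 12.41. Because these are whole-kidney RNA samples, fewer cells of a type and less RNA per cell cannot be told apart.

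Lysosomal genes moved in both directions. Among the 43 measured, 14 genes rose and 4 fell, while the other 25 missed the threshold. The largest rise was that of Gpnmb, a glycoprotein of phagocytes, at 7.81-fold, followed by the cathepsin genes Ctss (4.12-fold), Ctsk (2.61-fold) and Ctsc (2.19-fold) and the proton pump subunit gene Tcirg1 (2.06-fold). In all 5 members rose by at least 1 on the log2 scale, as did 2.16% of all genes tested. The 4 falls, those of Lipa, Arsb, Smpd1 and Neu1, were smaller, Lipa leading at 1.63-fold lower. Over all genes tested 21.8% passed, against 41.9% of the members. In the upward direction 10.7% of all genes passed, against 14 of 43 members, and in the downward direction 11.1%, against 4 of 43. The median difference was 0.14 over the members and -0.01 over all genes tested. In 27 of the 43 members the arrays of the groups were fully separated, 21 with all Cre-positive arrays above and 6 with all below, where 38.5% of all genes did not overlap (18.6% above and 19.9% below). For such a gene the exact two-sided permutation test gives p = 0.10, the smallest that 3 against 3 arrays allow. With sex as a second factor 9.15% of all genes passed, and 11 of the 18 calls held. Because no Cre-positive array was female, each difference in that fit is the one from Cre-negative replicate 3 alone, the only male control, here and wherever sex is a second factor. Without both replicates 2 the share was 8.35% and 12 of the 18 calls held, and in male arrays alone it was 4.96% and 7 held.

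**Figure D1:**
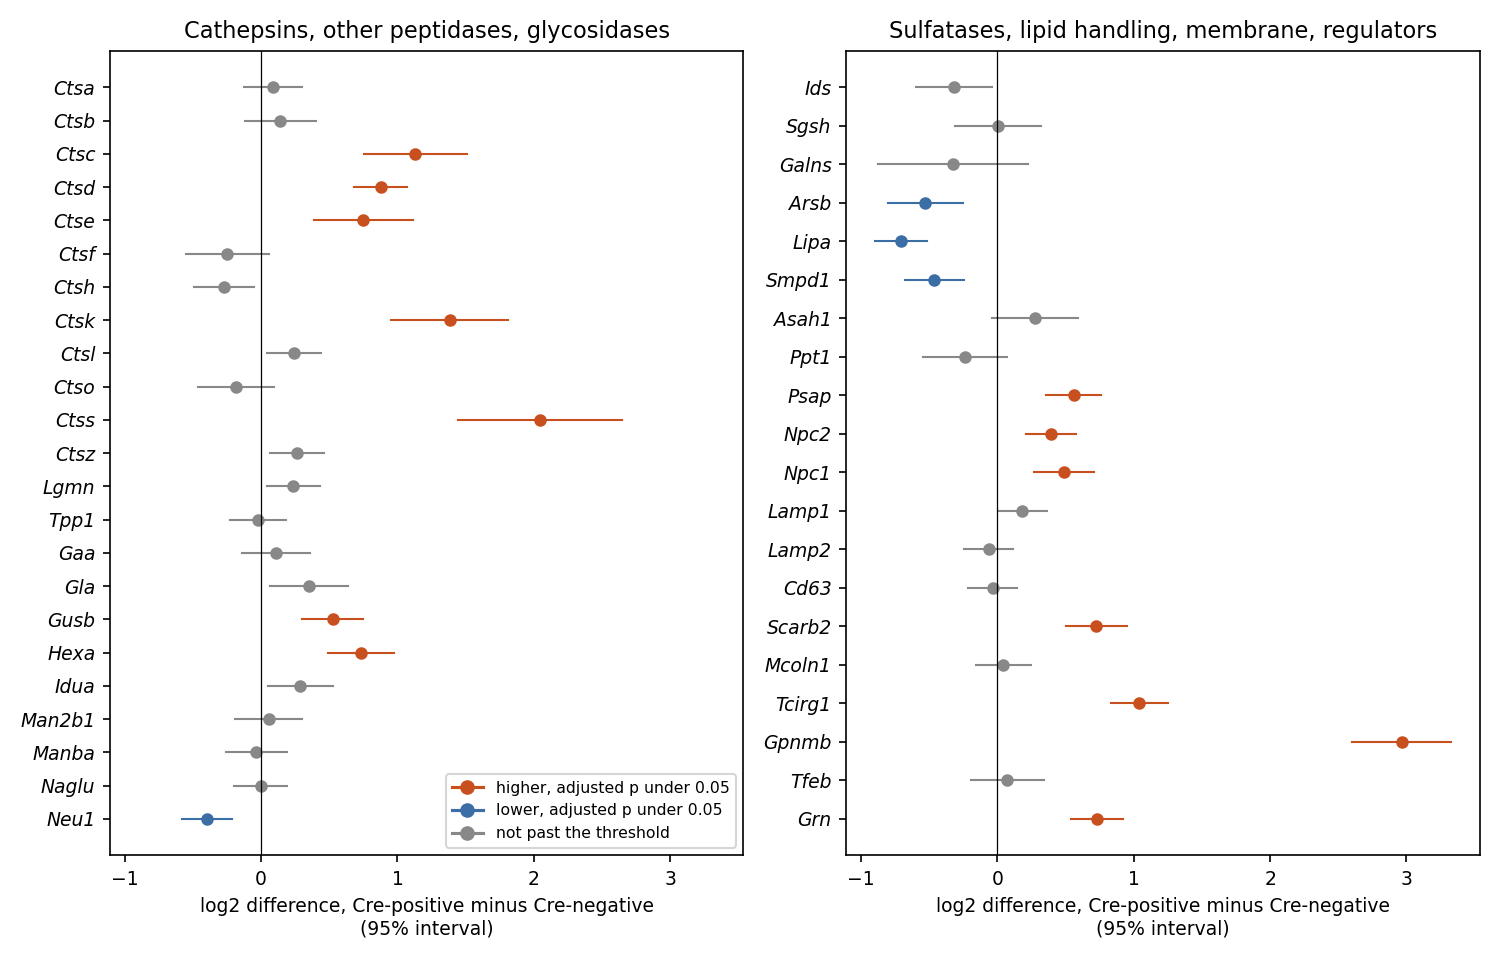
Log2 difference (Cre-positive minus Cre-negative, horizontal axis) with its 95% interval for each of the 43 measured members, in order of role. Orange points are the 14 genes that rose, blue points the 4 that fell and grey points the 25 that did not pass; Gpnmb (2.96) and Ctss (2.04) lie farthest to the right.

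The promoters of the members differed in whether they held the letters that TFEB and its relatives bind. RefSeq promoter windows (build GRCm38.p6, 250 bases before to 50 after the transcript start) were found for 39 of the 45 members, not for Ctsb, Ctse, Ctsh, Galns, Npc1 and Asah1. CACGTG, which reads the same on both strands, was present in 12 of the 39 members (30.8%) and in 8.09% of all 27025 genes with a window. The longer TCACGTGA was present in Ctsa, Ctsd, Gla and Mcoln1, or 10.3% of members and 1.12% of all genes, and the full consensus of the CLEAR element, longer by a base at either end, in 0 of the 39 members and 0.37% of all genes. Each longer string contains the shorter ones. The stretches around CACGTG in the 11 measured members that hold it are shown 5′ to 3′ on the gene's strand, with these letters in capitals, so that they can be set beside the members' differences. For Ctsd the nearer of 2 copies is shown.
Lamp1 (chr8:13159086-13159165, plus strand): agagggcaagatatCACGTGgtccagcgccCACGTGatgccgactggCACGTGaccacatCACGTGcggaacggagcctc
Ctsa (chr2:164833747-164833797, plus strand): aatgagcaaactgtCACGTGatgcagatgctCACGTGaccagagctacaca
Mcoln1 (chr8:3500434-3500493, plus strand): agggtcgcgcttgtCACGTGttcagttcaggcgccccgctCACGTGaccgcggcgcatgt
Gla (chrX:134601180-134601246, minus strand): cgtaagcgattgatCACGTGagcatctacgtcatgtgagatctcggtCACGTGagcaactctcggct
Ctsd (chr7:142387906-142387939, minus strand): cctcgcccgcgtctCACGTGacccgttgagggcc
Ctsf (chr19:4855072-4855105, plus strand): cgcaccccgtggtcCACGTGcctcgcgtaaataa
Ctsl (chr13:64370737-64370770, minus strand): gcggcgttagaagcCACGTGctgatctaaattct
Gaa (chr11:119267809-119267842, plus strand): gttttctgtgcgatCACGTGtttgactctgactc
Lgmn (chr12:102439122-102439155, minus strand): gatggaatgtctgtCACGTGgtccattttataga
Naglu (chr11:101070007-101070040, plus strand): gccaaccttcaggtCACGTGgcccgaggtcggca
Sgsh (chr11:119355520-119355553, minus strand): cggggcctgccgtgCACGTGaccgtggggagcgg
Lamp1 held 4 copies within the stretch shown, and Ctsa, Mcoln1 and Gla held 2 each.

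Of these 11 members only Ctsd passed the test, and it rose. Of the 26 measured members whose windows lacked CACGTG, 11 rose and 4 fell. Over all tested genes with a window the shares that passed were 25.8% with these letters and 22.0% without. The median difference was 0.11 for members with CACGTG and 0.17 for those without, but 0.22 for the 4 with TCACGTGA and 0.11 for the 33 without that string. With genes below the median level left out, Ctsl, Lgmn and Gla passed as well. In that setting 4 of 11 were called with CACGTG and 17 of 25 without. Over the table that setting called 4822 of the genes left, against 4844 of all genes before, so the share called was larger. The 3 members with the largest rises are shown for contrast, around the start, with CATGTG, a related string that these factors can also bind, in capitals.
Gpnmb (chr6:49036418-49036547, plus strand): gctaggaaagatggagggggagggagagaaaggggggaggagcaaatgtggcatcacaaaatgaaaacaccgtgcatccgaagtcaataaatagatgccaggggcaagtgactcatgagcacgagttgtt
Ctss (chr3:95526686-95526815, plus strand): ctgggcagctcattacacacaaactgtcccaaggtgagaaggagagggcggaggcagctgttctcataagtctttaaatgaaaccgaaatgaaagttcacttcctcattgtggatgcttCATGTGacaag
Ctsk (chr3:95499110-95499239, plus strand): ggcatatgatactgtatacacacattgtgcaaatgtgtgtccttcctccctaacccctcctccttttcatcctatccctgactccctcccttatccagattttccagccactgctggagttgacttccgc
CATGTG, read on either strand and chosen after the values were seen, was in 9 of 39 members (23.1%) and in 15.9% of all genes. Of the 9 measured members with it, 3 rose (Ctss, Scarb2 and Grn) and 1 fell (Neu1), and of the 28 without it 9 rose and 3 fell. Over all tested genes 20.6% with CATGTG passed and 22.6% without it.

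Among the cathepsins, the main proteases of the lysosome, 5 of 12 rose and 0 fell (41.7% called, against 21.8% of all genes). The genes that rose were Ctss, Ctsk, Ctsc, Ctsd and Ctse, and the median over the 12 was 0.25. These 5 comprise 3 of the 9 cysteine proteases and both aspartic proteases, while Ctsa, a serine carboxypeptidase that also protects other lysosomal enzymes, did not pass. Ctss encodes cathepsin S, a cysteine protease of antigen-presenting cells. Its level was 7.70, 7.26 and 7.38 in Cre-negative and 9.01, 9.36 and 10.10 in Cre-positive arrays. The lowest Cre-positive array lay above all Cre-negative ones, and Cre-positive replicate 3 stood highest. The rise was 4.12-fold (95% interval 2.71 to 6.26; 2.04 ± 0.26, limma adjusted p = 0.00144). Ctsk encodes cathepsin K, the collagen-degrading protease of osteoclasts, and lies next to Ctss on the same chromosome. It stood at 6.07, 6.29 and 6.16 in Cre-negative and at 7.25, 7.42 and 8.0 in Cre-positive arrays, again without overlap and with Cre-positive replicate 3 highest. It rose 2.61-fold (interval 1.94 to 3.51; 1.38 ± 0.18, limma adjusted p = 0.00175). The genes on either side of the pair did not pass, with Arnt at -0.09 ± 0.10 and Hormad1 at -0.09 ± 0.13. Hormad1 lay between 2.53 and 3.01 in every array, near the lowest array value of 1.89, so its difference says little.

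Ctsc encodes cathepsin C, which activates the granule proteases of leukocytes. It was measured at 9.05, 9.06 and 8.90 against 10.02, 9.87 and 10.51 and rose 2.19-fold (interval 1.69 to 2.84; 1.13 ± 0.16, limma adjusted p = 0.00232). Ctsd encodes cathepsin D, the broadly expressed aspartic protease. Its levels were 11.30, 11.17 and 11.13 against 12.10, 12.06 and 12.07, so the Cre-positive arrays lay within 0.03 of each other. It rose 1.84-fold (interval 1.60 to 2.10; 0.88 ± 0.08, limma adjusted p = 0.000462). Ctse, the gene of the aspartic protease cathepsin E, stood at 7.00, 7.18 and 6.94 against 8.06, 7.46 and 7.85. Here Cre-positive replicate 1 was the highest array, unlike for Ctss, Ctsk and Ctsc, and the rise was 1.68-fold (0.75 ± 0.16, limma adjusted p = 0.0119). The call of Ctse was lost with sex as a second factor and those of Ctsc, Ctse and Ctsk in male arrays alone, while Ctss and Ctsd passed in every alternative tried. All 5 passed without both replicates 2 and whichever array was left out.

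The other 7 cathepsins did not pass. Ctsb, the gene of cathepsin B, was at 11.89, 11.84 and 11.76 in Cre-negative and at 11.76, 12.09 and 12.08 in Cre-positive arrays. The groups overlapped, because Cre-positive replicate 1 lay no higher than the lowest control, and the difference was 0.14 ± 0.11 (limma adjusted p = 0.446). Ctsl, the gene of cathepsin L, stood at 11.47, 11.39 and 11.45 against 11.58, 11.71 and 11.75. All Cre-positive arrays were higher here, yet the difference of 0.24 ± 0.09 missed the threshold (limma adjusted p = 0.0837, from 0.0345 to 0.492 over the alternatives). The carboxypeptidase genes Ctsz (0.26 ± 0.09) and Ctsa (0.08 ± 0.09) also had positive differences that did not pass. Ctsf (-0.25 ± 0.13), Ctsh (-0.27 ± 0.10) and Ctso (-0.19 ± 0.12), 3 further cysteine cathepsins, had negative ones, and for Ctsh all Cre-positive arrays lay below all Cre-negative ones. With trend and robust settings, or without genes below the median level, 8 of the 12 cathepsins passed, 7 higher and Ctsh lower. The peptidase genes outside the cathepsin family did not pass: Lgmn, which encodes legumain, an asparaginyl endopeptidase that processes cathepsins, was at 0.24 ± 0.08 with no overlap, and Tpp1, a tripeptidyl peptidase gene, at -0.03 ± 0.09.

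**Figure D2:**
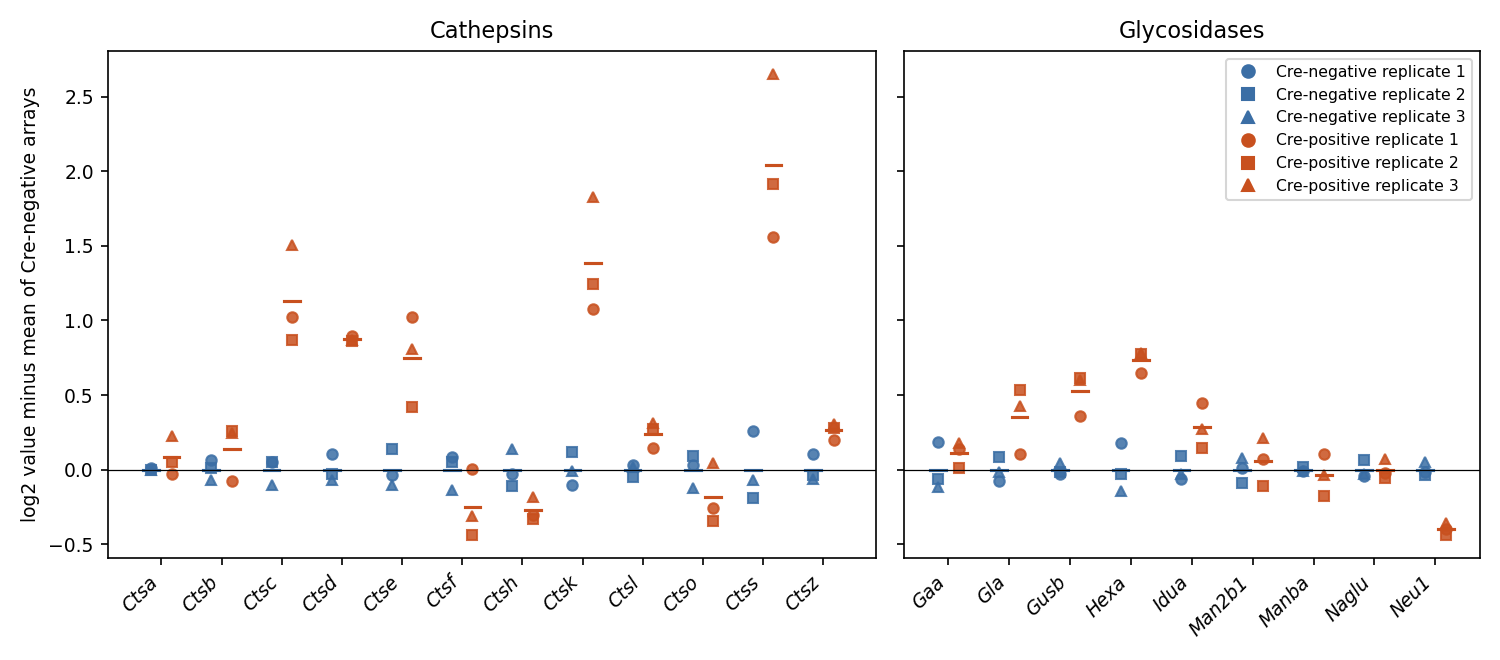
Log2 value of each array minus the mean of the 3 Cre-negative arrays (vertical axis) for 12 cathepsin genes and 9 glycosidase genes; blue symbols are Cre-negative, orange Cre-positive, symbol shapes mark the replicate and short bars the group means. Ctss, Ctsk and Ctsc reach differences above 1, while Hexa, at 0.73, is the highest glycosidase and Neu1, at -0.40, the lowest.

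Glycosidases, which trim sugars from glycans and glycolipids, included both rises and a fall. Of the 9 measured genes 2 rose, 1 fell and 6 did not pass (33.3% called, against 21.8% of all genes). On the log2 scale 0 of 9 differed by 1 or more, against 3 of 12 cathepsins. The median was 0.11. Hexa encodes the alpha subunit of beta-hexosaminidase, which cuts ganglioside GM2 and whose loss causes Tay-Sachs disease. It was at 9.88, 9.67 and 9.56 in Cre-negative and at 10.35, 10.48 and 10.48 in Cre-positive arrays, without overlap. It rose 1.66-fold (interval 1.40 to 1.97; 0.73 ± 0.11, limma adjusted p = 0.00238). Gusb, the gene of beta-glucuronidase, stood at 7.72, 7.73 and 7.79 against 8.11, 8.36 and 8.35 and rose 1.44-fold (0.53 ± 0.10, limma adjusted p = 0.0069). Neu1 encodes the lysosomal sialidase, which works in a complex with the product of Ctsa. It stood at 10.67, 10.64 and 10.73 against 10.28, 10.24 and 10.32, all Cre-positive arrays being lower. It fell by 0.40 ± 0.08, a level 0.758 times that of the controls (interval 0.668 to 0.861, limma adjusted p = 0.00961).

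The remaining glycosidase genes fell on both sides of 0. Gla, the X-linked alpha-galactosidase gene of Fabry disease (0.35 ± 0.12), and Idua, the alpha-iduronidase gene of Hurler syndrome (0.29 ± 0.10), had all Cre-positive arrays above the controls without passing. Gaa, the acid alpha-glucosidase gene of Pompe disease, was at 0.11 ± 0.11. The mannosidase genes Man2b1 (0.06 ± 0.11) and Manba (-0.04 ± 0.10) and the N-acetylglucosaminidase gene Naglu (-0.0025 ± 0.083) had overlapping groups. The interval of Naglu ran from 0.873 to 1.14 times the control level, and that of Manba from 0.837 to 1.14 times. The calls of Gusb and Neu1 were lost with sex as a second factor, which left 1, and without both replicates 2 limma called 0 of 9, with 4 at an unadjusted p under 0.05. The differences themselves stayed similar: with the sex factor Gusb was at 0.48 and Neu1 at -0.45, and without both replicates 2 Gusb was at 0.48, Neu1 at -0.40 and Hexa at 0.70. With genes below the median level left out, 5 passed, Gla and Idua being added.

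Sulfatases remove sulfate groups from glycosaminoglycans. Of the 4 measured 1 fell and 0 rose (25.0% called, close to the 21.8% of all genes). Arsb encodes arylsulfatase B, which acts on dermatan sulfate. Its levels were 10.55, 10.28 and 10.70 in Cre-negative and 9.93, 10.02 and 9.99 in Cre-positive arrays. It fell by 0.53 ± 0.12 to 0.694 times the control level (limma adjusted p = 0.0161), and its weaker probe set was lower too, by -0.79. The call was lost without Cre-negative replicate 1 (-0.51, limma adjusted p = 0.0619) and without Cre-negative replicate 3 (-0.43, limma adjusted p = 0.0509), within a range of 0.00386 to 0.0619 over the alternatives. Galns, whose product acts on keratan sulfate, was at 9.08, 8.88 and 9.90 against 8.98, 8.95 and 8.96. The male control, Cre-negative replicate 3, stood apart from the other 5 arrays, so the difference of -0.33 ± 0.24 did not pass but that with sex as a second factor, -0.94, did (limma adjusted p = 0.00867, from 0.00867 to 0.938 over the alternatives). That estimate rests on this single control array. Ids, an X-linked sulfatase gene of Hunter syndrome, was at -0.32 ± 0.12 with all Cre-positive arrays lower, and Sgsh, the sulfamidase gene, at 0.01 ± 0.14. Among 7 measured genes of heparan sulfate breakdown, grouped after the values were seen and including Hgsnat and Arsg, only Gusb passed (14.3%, against 21.8% of all genes).

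Genes of lipid breakdown and export went both ways. Of 7, 3 rose (Psap, Npc1 and Npc2) and 2 fell (Lipa and Smpd1), or 71.4% called against 21.8% of all genes. Lipa encodes the acid lipase that frees cholesterol and fatty acids from lipoprotein lipids. It was at 11.33, 11.33 and 11.24 in Cre-negative and at 10.57, 10.54 and 10.67 in Cre-positive arrays, a gap far wider than the spread within either group. It fell by 0.71 ± 0.08 to 0.613 times the control level (interval 0.537 to 0.700, limma adjusted p = 0.00101). Smpd1, the acid sphingomyelinase gene, stood at 10.44, 10.47 and 10.29 against 9.84, 9.96 and 10.02 and fell by 0.46 ± 0.09 (limma adjusted p = 0.0104). Its second probe set was lower by -0.52.

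Npc1 and Npc2 encode the membrane transporter and the soluble carrier that together move cholesterol out of the lysosome. Npc2 was at 9.72, 9.72 and 9.76 against 10.14, 10.07 and 10.17 and rose 1.31-fold (0.39 ± 0.08, limma adjusted p = 0.0104). Npc1 was at 8.46, 8.48 and 8.50 against 9.02, 8.81 and 9.08 and rose 1.40-fold (0.49 ± 0.10, limma adjusted p = 0.00948). Its second, dimmer probe set differed by 0.09. Psap encodes prosaposin, the precursor of the saposins that present sphingolipids to their hydrolases. It stood at 12.23, 12.21 and 12.38 against 12.87, 12.79 and 12.83 and rose 1.47-fold (0.56 ± 0.09, limma adjusted p = 0.00319). The acid ceramidase gene Asah1 (0.28 ± 0.14) and the palmitoyl thioesterase gene Ppt1 (-0.24 ± 0.13) did not pass. With sex as a second factor the calls of Smpd1, Psap, Npc1 and Npc2 were lost and that of Lipa held. Without both replicates 2 the calls of Smpd1, Psap and Npc2 were lost and those of Lipa and Npc1 held. Among 9 measured sphingolipid genes grouped after the values were seen, Hexa and Psap rose, while Smpd1, Neu1, the galactosylceramidase gene Galc (-0.78 ± 0.11) and the GM2 activator gene Gm2a (-0.34 ± 0.09) fell. These 6 calls are 66.7% of the 9, against 21.8% of all genes, and 1 of them held without both replicates 2.

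Among the membrane proteins 3 of 7 rose and 0 fell (42.9% called, against 21.8% of all genes). Gpnmb encodes a transmembrane glycoprotein of macrophages, osteoclasts and pigment cells that is recruited to phagosomes and lysosomes. Its level was 5.82, 5.27 and 5.54 in Cre-negative and 8.48, 8.33 and 8.70 in Cre-positive arrays, separated by more than 2.5 on the log2 scale. The rise of 7.81-fold (interval 6.08 to 10.03; 2.96 ± 0.16, limma adjusted p = 5.21e-05) was the largest of the list. Its control level is near the array medians or below them, where RMA tends to shrink folds. Tcirg1 encodes the a3 subunit of the proton pump, known from osteoclasts and phagocyte lysosomes. It was at 7.69, 7.67 and 7.78 against 8.64, 8.80 and 8.83 and rose 2.06-fold (interval 1.78 to 2.37; 1.04 ± 0.09, limma adjusted p = 0.000272). Scarb2, the gene of the sorting receptor for glucocerebrosidase, stood at 8.50, 8.65 and 8.79 against 9.41, 9.32 and 9.38 and rose 1.65-fold (0.73 ± 0.10, limma adjusted p = 0.00181).

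The most abundant structural proteins of the lysosomal membrane showed little difference. Lamp1 was at 11.98, 11.93 and 11.97 in Cre-negative and at 12.14, 12.19 and 12.10 in Cre-positive arrays. The groups did not overlap, but the difference of 0.18 ± 0.08 did not pass (limma adjusted p = 0.147), and its interval ended at 1.29 times the control level. Lamp2, X-linked, was at 11.65, 11.68 and 11.72 against 11.61, 11.57 and 11.67, with overlapping groups (-0.07 ± 0.08, limma adjusted p = 0.635, interval 0.843 to 1.08 times). Cd63, a tetraspanin gene of late endosomes, was at -0.03 ± 0.08, and Mcoln1, which encodes a calcium release channel of lysosomes, at 0.04 ± 0.09.

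Of the regulators, Tfeb did not pass and Grn rose. Tfeb was at 5.96, 5.77 and 5.72 in Cre-negative and at 6.00, 5.98 and 5.69 in Cre-positive arrays, with overlapping groups and a difference of 0.07 ± 0.12 (limma adjusted p = 0.725, interval 0.873 to 1.27 times). The array measures transcripts, and TFEB is regulated largely through its entry into the nucleus. Grn encodes progranulin, a secreted and lysosomal protein that is cut into granulins and binds prosaposin. It stood at 10.61, 10.58 and 10.58 against 11.28, 11.27 and 11.41 and rose 1.66-fold (interval 1.45 to 1.89; 0.73 ± 0.08, limma adjusted p = 0.000878). Ctsd, Ctss, Tcirg1, Gpnmb and Grn were the 5 of 18 called members that passed under every alternative tried.

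Most macrophage and myeloid markers were also higher in the Cre-positive arrays. Of 17 such markers, chosen without any member, 14 rose and 0 fell (82.4% called, against 21.8% of all genes). Their summed level (log2 of the sum of linear values) was 11.57 to 11.65 in Cre-negative and 12.44, 13.03 and 13.64 in Cre-positive replicates 1, 2 and 3. All 17 markers were lowest in Cre-positive replicate 1 among the Cre-positive arrays, and 16 of 17 were highest in replicate 3. Csf1r, the receptor gene that defines the lineage, was at 8.89, 8.83 and 9.04 against 8.73, 9.11 and 9.84 and did not pass (0.31 ± 0.25). The members were not alike in this respect. Of the 14 members that rose, 9 were highest in Cre-positive replicate 3, 4 in replicate 1 and 1 in replicate 2. Among the same 14, 9 were lowest in replicate 2 and 5 in replicate 1. The range over the Cre-positive arrays was 1.09 for Ctss, the widest of the 14, and 0.03 for Ctsd, the narrowest. Of the 14 marker calls 6 held with sex as a second factor and 6 without both replicates 2. The part of macrophage number in each rise was not tested.

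**Figure D3:**
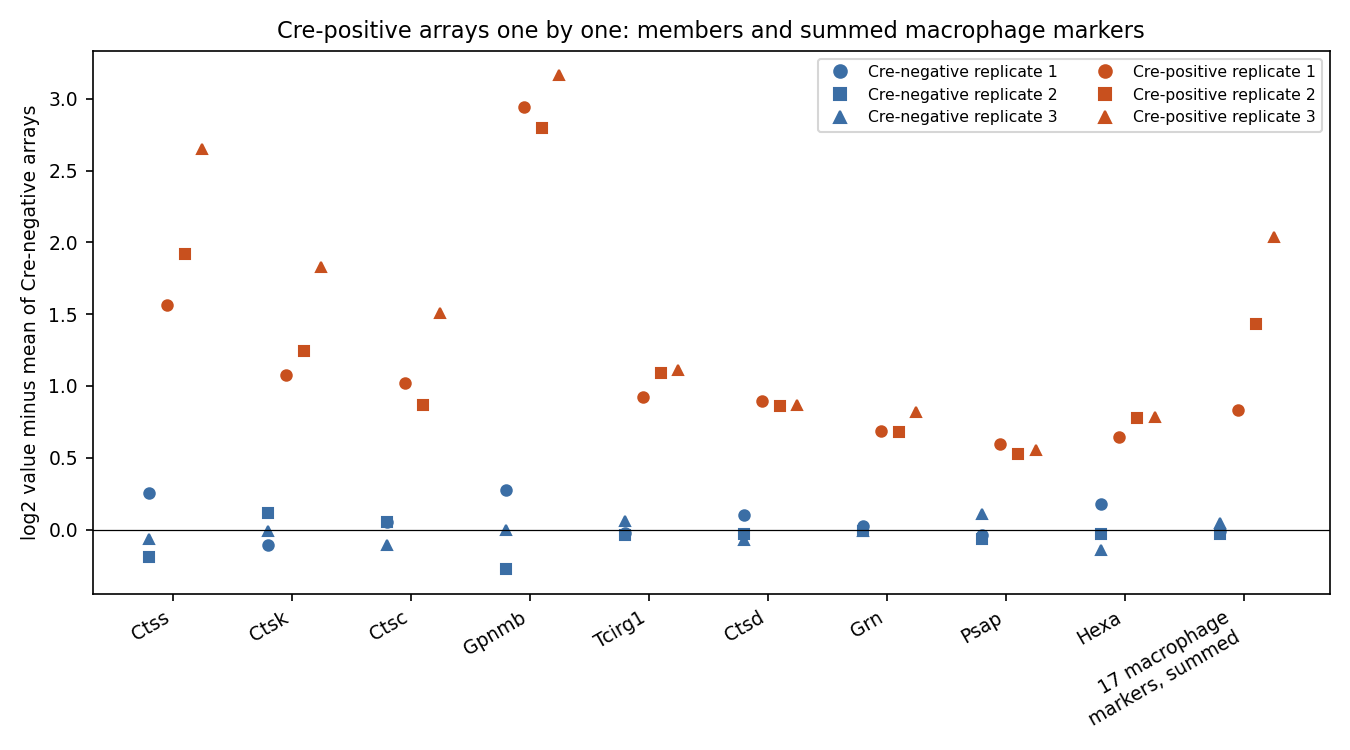
Log2 value minus the mean of the Cre-negative arrays (vertical axis) in each array, for 9 members that rose and for the summed linear level of 17 macrophage and myeloid markers, given as log2; colours mark groups and shapes replicates. Ctss and Ctsk spread over the Cre-positive arrays as the marker sum does, with replicate 3 highest, whereas Ctsd spans only 0.03 and Gpnmb is lowest in replicate 2. Among the Cre-positive arrays replicate 3 is also highest in the summed fibroblast, lymphocyte and endothelial markers, which are not drawn.

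Markers of other cell types were read in the same way, beside the 10.7% of all genes that rose and the 11.1% that fell. Of 6 lymphocyte markers 0 passed the limma threshold and 4 had an unadjusted p under 0.05, and their summed level was 7.97 to 8.12 in Cre-negative and 7.92, 8.42 and 8.77 in Cre-positive replicates 1, 2 and 3. Differences were above 0 for 3 of the 6 and below 0 for 3, and for 1 of the latter all Cre-positive arrays lay below all controls. Cd3e and Cd4 were higher in Cre-positive replicates 2 and 3 than in every control. All 6 neutrophil markers, among them S100a8 and S100a9, were between 2.97 and 5.66 in every array and 0 passed (0 at an unadjusted p under 0.05). The 5 melanocyte markers, read because pigment cells make Gpnmb, lay between 3.60 and 5.57, with 0 past the limma threshold and 0 at an unadjusted p under 0.05. Among 6 osteoclast markers Calcr (1.15 ± 0.19) and Dcstamp (0.49 ± 0.13) rose and Acp5 (-0.45 ± 0.10) fell, and their summed level was 9.28 to 9.43 in Cre-negative and 9.21 to 9.32 in Cre-positive arrays. Of 4 fibroblast and pericyte markers 3 rose, with summed levels of 11.91 to 12.02 in Cre-negative arrays. In Cre-positive replicates 1, 2 and 3 their sum was 12.46, 12.77 and 13.32. This order was that of the macrophage sum, so it was not particular to macrophage markers. The lymphocyte, osteoclast, podocyte and endothelial sums had it too, the last at 11.60, 11.65 and 12.13. Neutrophil, melanocyte, tubule and collecting duct sums did not. Proximal tubule markers went the other way: 9 of 10 fell, and their summed level was 15.45 to 15.53 against 14.20 to 14.37. Megalin and cubilin, the receptors that deliver filtered protein to the lysosome, were at -1.11 ± 0.10 (Lrp2) and -1.14 ± 0.12 (Cubn). Falls were also counted for 3 of 5 thick ascending limb, 4 of 4 distal convoluted tubule, 3 of 4 podocyte and 3 of 4 endothelial markers, while 3 of 5 principal cell markers rose. With sex as a second factor 2, 0, 2, 1 and 2 of these calls held, in the same order. Without both replicates 2 the counts were 2, 2, 2, 1 and 0. What these shifts in tubule markers contributed to the falls of Lipa, Arsb, Smpd1 and Neu1 was not tested.

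The proton pump, which acidifies the lysosome and in intercalated cells secretes acid, had no other subunit gene that rose with Tcirg1. Of 23 other pump genes measured 7 fell and 0 rose (30.4% called, against 21.8% of all genes), with a median of -0.24. The 4 of smallest p were Atp6v0e2 (-0.93 ± 0.17), Atp6v1b2 (-0.47 ± 0.09), Atp6v1a (-0.39 ± 0.08) and Atp6v1g3 (-0.46 ± 0.12), the last being an isoform of intercalated cells. The a subunit, of which Tcirg1 is the third form, also has the genes Atp6v0a1 (0.29 ± 0.11, not past the threshold), Atp6v0a2 (-0.39 ± 0.12, which fell) and Atp6v0a4 (-0.22 ± 0.14, not past it). Of the 7 calls 0 held with sex as a second factor, where 0 pump genes passed, and 0 held without both replicates 2. Of 5 intercalated cell markers 3 fell in the same arrays, including Slc26a4 (-1.36 ± 0.21), with summed levels of 11.76 to 12.13 against 11.46 to 11.56. These markers include the pump subunit genes Atp6v1g3 and Atp6v0d2. The fall of Atp6v1g3 is thus in both counts, which are not separate observations.

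**Figure D4:**
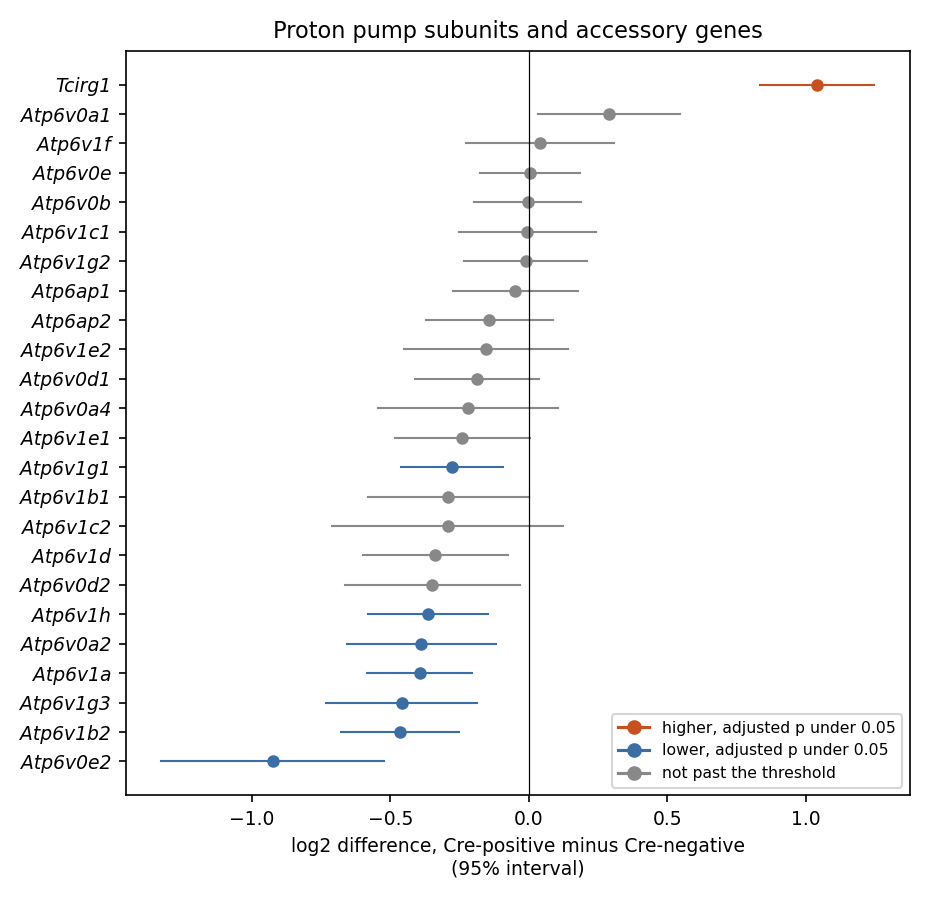
Log2 difference (Cre-positive minus Cre-negative) with its 95% interval for Tcirg1 and 23 other genes of the vacuolar proton pump, sorted by difference. Tcirg1 (1.04) is the only orange point; the 7 blue points lie between -0.28 and -0.93.

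Other hydrolases of the lysosome, were read from a list that excluded the members. Of 25 measured 7 fell and 0 rose (28.0% called, against 21.8% of all genes in either direction and 11.1% in the downward one), with a median of -0.18. The 4 of smallest p were Galc, the phosphatase gene Acp5 (-0.45 ± 0.10), the sialate esterase gene Siae (-0.74 ± 0.17) and the phosphodiesterase gene Smpdl3a (-0.40 ± 0.10). Of the 7 calls 5 held with sex as a second factor and 1 without both replicates 2. Other membrane proteins divided evenly, with 5 higher and 5 lower of 29 (34.5% called, against 21.8% of all genes). Litaf, which encodes a late endosomal protein (1.08 ± 0.08), and the endolysosomal cation channel gene Tpcn2 (0.57 ± 0.09) rose. The proton-coupled amino acid transporter gene Slc36a1 (-0.57 ± 0.10) and the cobalamin transporter gene Abcd4 (-0.63 ± 0.14) fell. Of these 10 calls 4 held with sex as a second factor and 1 without both replicates 2. In the wider cathepsin family Tinag, a catalytically inactive relative found in tubular basement membrane, fell (-1.19 ± 0.11) and Tinagl1 rose (0.47 ± 0.09). The 8 cathepsin genes of the placenta lay between 2.83 and 4.15 in all 6 arrays, and 0 of them passed, with 0 at an unadjusted p under 0.05; the next of the family by p were Ctsj (-0.15 ± 0.08) and Ctsr (-0.18 ± 0.10).

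Inhibitors, sorting genes and regulators were read from lists of their own. Among 15 cystatin and related inhibitor genes only Cstb passed (6.67%, against 21.8% of all genes). It encodes cystatin B, an intracellular inhibitor of cysteine cathepsins, and stood at 9.67, 9.76 and 9.70 in Cre-negative and at 10.68, 11.03 and 10.98 in Cre-positive arrays. Its rise was 2.27-fold (1.19 ± 0.11, limma adjusted p = 0.000402), and it held with sex as a second factor, without both replicates 2 and in male arrays alone. Cst3, the gene of the secreted inhibitor cystatin C, was at 0.32 ± 0.11 and did not pass, nor did Cst12 (-0.21 ± 0.09) and Cstl1 (-0.24 ± 0.11). Of 18 genes of sorting and enzyme maturation 3 fell and 1 rose, or 22.2%, close to the 21.8% of all genes. Gnptab (0.29 ± 0.09) rose and Gnptg (-0.36 ± 0.09) fell, both encoding subunits of the enzyme that builds the mannose phosphate tag. Sumf1, which activates all sulfatases (-0.38 ± 0.09), and the retromer gene Vps29 (-0.38 ± 0.11) fell. With sex as a second factor, or without both replicates 2, 0 of these 4 calls held. The tag receptor genes M6pr (-0.26 ± 0.10) and Igf2r (-0.21 ± 0.12) did not pass.

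Of 21 regulators of lysosomal transcription and nutrient sensing 1 rose and 5 fell (28.6% called, against 21.8% of all genes). The 1 that rose was Tfe3, a relative of Tfeb, at 8.46, 8.56 and 8.38 against 8.86, 8.90 and 8.87 (0.41 ± 0.09, limma adjusted p = 0.0116). That call was lost with sex as a second factor. Mitf (-0.04 ± 0.08) and Tfec (-0.04 ± 0.12), the other relatives, did not pass. The falls of smallest p were those of Lamtor5 (-0.92 ± 0.12) and Rragb (-0.87 ± 0.16), which belong to the lysosomal platform of mTOR signalling, Ppargc1a (-0.45 ± 0.09) and Fnip2 (-0.49 ± 0.10). Of the 6 calls 1 held with sex as a second factor. Of 36 autophagy genes 2 rose and 3 fell (13.9%, against 21.8% of all genes). Plekhm1, which links lysosomes to autophagosomes (0.48 ± 0.08), and Atg7 (0.43 ± 0.10) rose, and Gabarapl1 (-0.46 ± 0.10) and Wipi2 (-0.39 ± 0.09) fell. Of these 5 calls 1 held with sex as a second factor and 0 without both replicates 2.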

How the data were processed

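Total RNA of 6 mouse kidneys was measured on 1 Affymetrix array each. The deposited table gives RMA log2 values; Partek is named beside RMA, per the submitters' processing notes, and tool version, build and annotation were not given in the sources used here. RMA corrects background, quantile-normalizes and summarises probes. The table held 41345 rows and 0 columns of other samples; 23521 rows had exactly 1 gene symbol, 1814 several and 16010 none, and only the first kind was used, as 22180 genes. The comparison used limma 3.58.1 under R 4.3.3, with lmFit, eBayes and two-sided p-values without covariates (Benjamini-Hochberg over all genes, threshold 0.05); no filter on low values was applied. Fold intervals are 95% intervals of the limma difference. The code was tested on simulated data. The members and lists were chosen with earlier results of these data known, so no list was tested. The number of arrays limits precision. Same-numbered samples did not deviate together (correlations 0.03, -0.04 and -0.01), so the replicate number was used only in an alternative. Values in every array are given for members differing by at least 1 past the threshold, cathepsins and glycosidases past it, and Lamp1, Lamp2, Ctsb, Ctsd, Ctsl and Tfeb; further members past it, Galns, Cstb, Tfe3, Csf1r, Arnt and Hormad1 were added after their values were seen, as were the list members named beyond the 4 of smallest p. Promoters were searched on both strands. Python 3.11.15, pandas 2.3.3 and matplotlib 3.10.9 made tables and figures.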

Additional observations from a re-analysis of the deposited data

How the results depend on the processing

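The alternatives concerned scaling (median centring, quantile normalization again), the genes entered (dim genes removed, rows of a gene averaged), the fit (array weights, robust and trended eBayes, the replicate number as a block, a sex term), the threshold (0.01) and arrays left out. The sex term, like the male arrays alone, sets the Cre-positive arrays against a single control. All 18 called members kept their direction in all 306 such values, and 30 of these lost the call. The groups of all 18 were fully separated, so leaving out arrays, array weights and the sex term could not reverse a difference. The threshold, the eBayes settings, the replicate block and the removal of dim genes leave each difference unchanged. Only the scalings and the averaging of rows could have changed a sign. The 4844 genes called over the table (2372 higher, 2472 lower) became 2030 with the sex term, 1853 without both replicates 2, 1101 in male arrays alone and 2516 at 0.01, and with 1 array left out ran from 3141, without Cre-negative replicate 1, to 4885. Median centring moved the split to 1861 higher and 3134 lower. Without genes below the median level 4822 were called among fewer genes, so the share called was larger. Of the members, 8 were called in male arrays alone and 17 to 19 with 1 array left out. The cathepsin count of 5 became 8 with trend and robust settings and without genes below the median level, and 2 in male arrays alone, and stayed 5 with any 1 array left out. The glycosidase count of 3 became 1 with the sex term and in male arrays alone, 0 without both replicates 2 (limma, 4 at an unadjusted p under 0.05) and 5 without genes below the median level, and was 3 to 4 with 1 array left out. With the replicate number as a block, 3977 genes, 18 members, 5 cathepsins and 3 glycosidases were called. No called member changed sign. Members that did not pass changed sign as follows. With the sex term and in male arrays alone Man2b1 was at -0.0203, Naglu at 0.0236, Sgsh at -0.13 and Cd63 at 0.0031. Under median centring Man2b1 was at -0.0060, Sgsh at -0.0562 and Mcoln1 at -0.0174. After quantile normalization Tpp1 was at 0.034, Sgsh at -0.0145 and Cd63 at 0.0214, and with array weights Sgsh was at -0.0257. Without both replicates 2 Manba was at 0.0456, Naglu at 0.0566 and Mcoln1 at -0.0133. With 1 array left out Tpp1 ran from -0.0649 to 0.0394, Man2b1 from -0.0215 to 0.1401, Manba from -0.1063 to 0.0371, Naglu from -0.0391 to 0.0304, Sgsh from -0.13 to 0.0909 and Mcoln1 from -0.0083 to 0.0903. The cause of these changes was not tested, beyond the smaller number of arrays or genes in some alternatives. Dim probe sets limit the size of folds.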
